A study of Mus musculus with 12 samples.

Results

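Genes of the piRNA pathway and of the nuage were measured in whole mouse ovaries. The members were 10 named genes, Gtsf1, Mael, Ddx4, Piwil2, Stk31, Asz1, Pld6, Mov10l1, Tdrkh and Tdrd1, and every probe annotated to one of them was taken. They are covered by 17 of the 45281 probes of the array. Of those 17 probes, 9 were detected on at least 3 of the 12 arrays and could be tested, which leaves 8 of the 10 genes. Total RNA came from ovaries of female FVB/N mice at 14 days postnatal (dpn), hybridised to 12 Illumina bead arrays. Each of 4 groups had 3 arrays: Foxo3+/- or Foxo3-/- ovaries, heterozygous or null for a forkhead transcription factor, either without a transgene (NoTg) or with one (Tg). Every animal therefore carried at least one mutant Foxo3 allele, and no wild-type group is among the samples. The series title describes a constitutively active Foxo3 in oocytes. The labels name neither the promoter nor the line, and do not say whether an array holds 1 animal or a pool.

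PIWI-interacting RNAs (piRNAs) are small RNAs of the animal germline that guide PIWI proteins to transposon transcripts. Their processing takes place largely in nuage, electron-dense granules near mitochondria of germ cells, which are built around the helicase DDX4 and Tudor domain proteins. In mice the pathway is best known for its need in male meiosis; oocytes hold piRNAs and the related endogenous small interfering RNAs, and female mutants of most of these genes remain fertile. In the oocyte, FOXO3 restrains the activation of primordial follicles, which start to grow early when it is lost.

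Sequence upstream of the genes was taken from a RefSeq table (build GRCm38.p6), in which 9 of the 10 members were found, Piwil2 being the tenth. The 250 bases before the transcription start are printed for Gtsf1, Tdrkh and Tdrd1, the 3 genes whose signal differed between groups. Capitals mark CACGTG, the palindromic E-box bound by Myc and Max type proteins, which reads the same on both strands.
Gtsf1 (chr15:103430428-103430677, minus strand): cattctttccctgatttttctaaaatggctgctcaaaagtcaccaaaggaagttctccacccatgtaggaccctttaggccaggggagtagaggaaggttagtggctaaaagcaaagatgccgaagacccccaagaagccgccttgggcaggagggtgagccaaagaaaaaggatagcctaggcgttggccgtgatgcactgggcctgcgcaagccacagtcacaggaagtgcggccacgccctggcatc
Tdrkh (chr3:94412994-94413243, plus strand): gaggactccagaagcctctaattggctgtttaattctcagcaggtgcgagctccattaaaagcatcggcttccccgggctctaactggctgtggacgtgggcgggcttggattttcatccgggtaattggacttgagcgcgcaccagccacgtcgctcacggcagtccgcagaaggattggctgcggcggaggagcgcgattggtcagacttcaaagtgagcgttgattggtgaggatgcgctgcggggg
Tdrd1 (chr19:56825959-56826208, plus strand): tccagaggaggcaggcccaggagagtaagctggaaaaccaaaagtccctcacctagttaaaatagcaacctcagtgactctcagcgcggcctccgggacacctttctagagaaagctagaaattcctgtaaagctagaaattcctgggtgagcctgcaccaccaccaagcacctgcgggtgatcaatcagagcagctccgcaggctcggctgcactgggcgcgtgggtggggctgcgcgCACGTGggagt
These windows serve as a reference for the values that follow. Of the 3, the Tdrd1 window holds a CACGTG, 11 bases before the start, and those of Gtsf1 and Tdrkh hold none.

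The same element was found in other members, shown here with up to 12 bases on each side because 5 of the 9 windows hold it.
Mael (chr1:166238950-166238979, minus strand): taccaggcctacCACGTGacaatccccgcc
Ddx4 (chr13:112652322-112652351, minus strand): ggcgtccgcccgCACGTGcagccgtttaag
Stk31 (chr6:49395472-49395501, plus strand): aggccggccaccCACGTGaccagggctgcg
Mov10l1 (chr15:88982744-88982765, plus strand): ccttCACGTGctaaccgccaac
Counting 1 window per gene, the first in the table, 5 of the 9 members held CACGTG (55.6%), against 20% of the other piRNA pathway genes (3 of 15), 20% of the oocyte markers (3 of 15) and 6.05% of 27025 genes in that table. Pld6 held it in its second window, 33 bases before the start. A search of both strands for GTAAACA, a forkhead type motif of FOXO proteins, found 0 of the 9 members and 3.09% of all genes. The looser E-box CANNTG, which includes CACGTG, was present in 77.8% of the members and 66% of all genes. The ratio of observed to expected CpG was 0.38 for Gtsf1, equal to the median of 0.38 over all genes, 0.53 for Tdrd1 and 0.71 or more for the other 7. CACGTG itself holds a CpG, and no share among windows of like CpG ratio is given, so 6.05% is not a matched background. These shares describe the windows, and no test was made.

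On the arrays, 20072 to 22015 probes were detected at a p-value under 0.05 against negative control beads. Background, here the median raw intensity of probes with a detection p-value above 0.5, was 76.3 to 81.2 on NoTg and 65.4 to 74.2 on Tg arrays. It was also higher on every Foxo3-/- array than on any Foxo3+/- array of the same transgene state (79.9 to 81.2 against 76.3 to 79.8, and 68.5 to 74.2 against 65.4 to 67). Background and group therefore cannot be told apart by comparing groups. Of 19 tested oocyte markers 18 or 19 were detected on each array, and of 9 granulosa markers 8 or 9, so the defining markers of ovary were present.

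Detection separated the members into 3 classes. Gtsf1, Piwil2, Asz1, Mov10l1 and single probes of Ddx4, Stk31 and Tdrd1, together with a pair for Tdrkh, were detected on 12 of 12 arrays. Mael, a nuage protein with an HMG box, was detected on 0 of 12 arrays (raw intensity 56.6 to 87.5, lowest detection p-value 0.40171) and is not well above background. Pld6, the mitochondrial phospholipase known as Zucchini in flies, was detected on 2 of 12 arrays, Tg Foxo3+/- replicates 2 and 3, at raw intensities of 85.9 and 97.9. Over all arrays its raw intensity ran from 73.3 to 97.9. Neither gene was tested. The remaining undetected probes were further probes of Ddx4, Stk31, Tdrkh and Tdrd1, detected on 0 arrays although another probe of the same gene was detected on all 12. The positions of these probes on the transcripts were not used here.

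**Figure D1:**
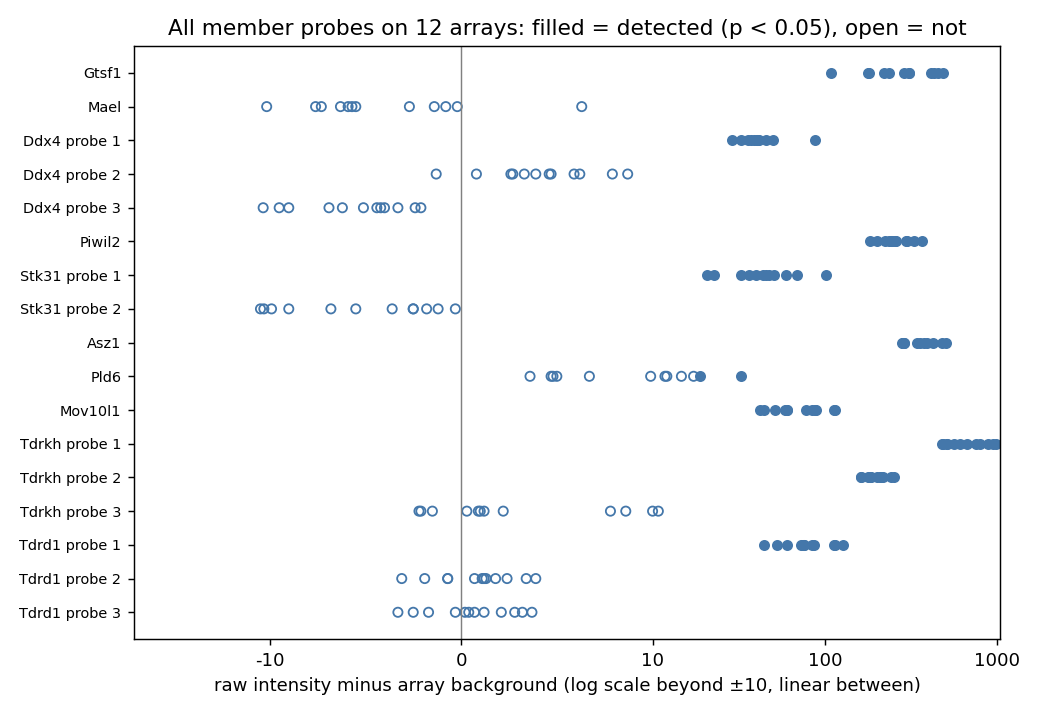
Raw intensity minus the background of each array (horizontal axis, intensity units, logarithmic beyond 10 units and linear between) for all 17 member probes on 12 arrays, 1 point per array. Filled points were detected and open points were not. The 9 tested probes are filled on all arrays, Pld6 is filled on 2, and the others lie around 0.

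Among the tested members, Gtsf1 was lower with the transgene, and Tdrd1 and 1 of the 2 tested Tdrkh probes were higher in Foxo3-/- ovaries. Piwil2, Ddx4, Mov10l1, Asz1 and Stk31 passed the test in no comparison. A gene counts as called at a limma adjusted p under 0.05, with Benjamini-Hochberg adjustment across the 22511 tested probes. Members and listed genes are counted by their brightest tested probe. The shares of all probes beside them count every tested probe, dim and duplicate ones included, so the 2 measures differ. Levels are log2 normalized intensity, differences are on the log2 scale with the standard error (SE) of the model, and the error of a group level is the SD with n = 3. Nothing in the labels says that the 3 samples of a group are different animals, so the p-values cover only the spread among these arrays, part of which may be technical.

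Gtsf1 encodes a small zinc finger protein that assists PIWI proteins in transposon silencing. Its level was 8.58, 8.56 and 8.57 in NoTg Foxo3+/- ovaries, and 7.09, 7.56 and 7.70 in Tg Foxo3+/- ovaries. In Foxo3-/- ovaries it was 8.80, 8.70 and 8.65 without the transgene and 8.14, 7.93 and 7.86 with it. All 6 Tg arrays lay below all 6 NoTg arrays, and the lowest was Tg Foxo3+/- replicate 1.

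The difference for the transgene was -1.12 ± 0.15 SE in Foxo3+/- ovaries (2.17-fold lower, limma adjusted p = 0.0112), where 1 of 8 member genes was called against 0.364% of all probes (0.00444% higher and 0.36% lower). In Foxo3-/- ovaries it was -0.74 ± 0.15 (adjusted p = 0.0512), where 0 of 8 members were called (0.191% of all probes, 0.00888% higher and 0.182% lower) and Gtsf1 had the only unadjusted p under 0.05 among the members. Averaged over both genotypes, Gtsf1 fell 1.90-fold (-0.93 ± 0.11, adjusted p = 0.000514), and 1 of 8 members was called against 3.05% of all probes (0.111% higher and 2.94% lower). The call in Foxo3+/- ovaries was lost without NoTg Foxo3+/- replicate 2 (adjusted p = 0.0798), without NoTg Foxo3+/- replicate 3 (adjusted p = 0.0618) or without Tg Foxo3+/- replicate 2 (adjusted p = 0.0664), at differences of -1.12 to -1.17, while the averaged call held without any single array. Median scaling (-0.97, adjusted p = 0.576) and the authors' values (-0.87, adjusted p = 0.0649) ended it in Foxo3+/- ovaries too, as did a fit to only the compared groups (-1.12, adjusted p = 0.0910) and array background as a covariate (-0.72, adjusted p = 0.999). In Foxo3-/- ovaries it passed without NoTg Foxo3+/- replicate 3 (adjusted p = 0.0347) or without Tg Foxo3+/- replicate 1 (adjusted p = 0.0247), arrays that enter that difference through the shared estimate of the spread. It passed there too with the authors' values (adjusted p = 0.0289), a stricter detection filter (p under 0.01 on at least 6 arrays, adjusted p = 0.0458), array weights (adjusted p = 0.00687) and the mean of each gene's probes (adjusted p = 0.0430), at -0.73 to -0.74. With array background as a covariate, which does not overlap between Tg and NoTg arrays, the averaged difference was -0.56 (adjusted p = 1). Above its array's background the mean raw signal was 343 in NoTg and 174 in Tg Foxo3+/- ovaries, and 454 in NoTg and 228 in Tg Foxo3-/- ovaries. The part of the background difference in this result was not tested further.

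By genotype, Gtsf1 stood 0.15 ± 0.15 SE above Foxo3+/- in Foxo3-/- ovaries lacking the transgene (limma adjusted p = 0.702) and 0.53 ± 0.15 above in those carrying it (adjusted p = 0.0793). In both cases the 3 null arrays lay above the 3 heterozygous ones. The share of all tested probes that separate in this way is not given, here or wherever groups are said not to overlap. The averaged difference of 0.34 ± 0.11 did not pass (adjusted p = 0.0607), and it passed without Tg Foxo3+/- replicate 3 (0.40, adjusted p = 0.0386), with array weights (0.32, adjusted p = 0.0217) and with the mean of each gene's probes (0.34, adjusted p = 0.0446). Over all settings its adjusted p ran from 0.0217 to 0.620. Array weights also gave a call for the difference with the transgene (0.46, adjusted p = 0.0199). The order of the group means was NoTg Foxo3-/- (8.72 ± 0.08), NoTg Foxo3+/- (8.57 ± 0.01), Tg Foxo3-/- (7.98 ± 0.15) and Tg Foxo3+/- (7.45 ± 0.32). The first and the last neighbouring pairs are the genotype differences above, which did not pass. The middle pair was not tested, and its arrays did not overlap. The interaction, the change of the transgene difference between genotypes, was 0.38 ± 0.21 (adjusted p = 0.994).

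**Figure D2:**
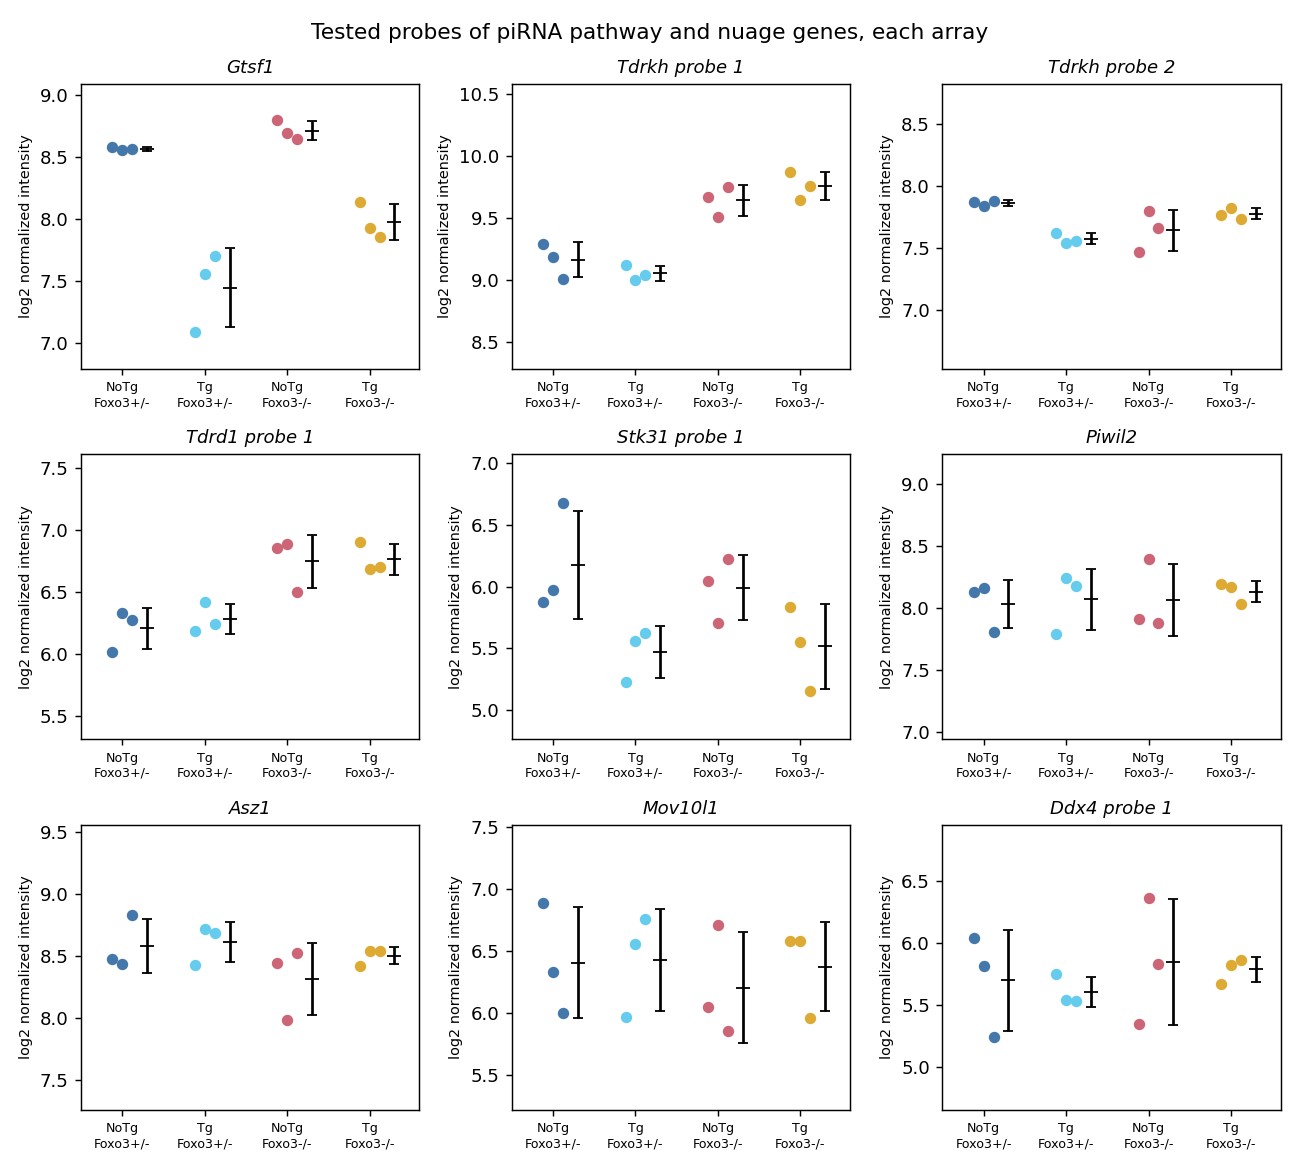
Log2 normalized intensity (vertical axes, each spanning the same number of log2 units) of the 9 tested member probes in the 4 groups. Points are arrays, and the black bar gives the group mean with its SD (n = 3). Gtsf1 lies lower on all 6 Tg arrays, Tdrkh probe 1 and Tdrd1 probe 1 lie higher on all 6 Foxo3-/- arrays, and the groups of Piwil2, Asz1, Mov10l1 and Ddx4 overlap.

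The level of Gtsf1 was set beside that of the oocyte markers. Their mean is a marker level and no count of oocytes, and what part oocyte content has in the fall was not tested. The mean log2 level of the 19 oocyte markers was 11.25 to 11.31 in NoTg Foxo3+/-, 11.04 to 11.22 in Tg Foxo3+/-, 11.45 to 11.53 in NoTg Foxo3-/- and 11.44 to 11.50 in Tg Foxo3-/- ovaries. For the averaged transgene difference, 15 of the 19 markers lay below 0 with a median of -0.09, and 1 fell, Oosp1 (-0.30 ± 0.07 SE, limma adjusted p = 0.0348). Over all probes, 42.2% lay below 0 and 2.94% were called lower. Set against the mean of those markers on the same array, Gtsf1 was lower by -0.84 with the transgene. It ran from -3.95 to -3.36 on Tg arrays and from -2.88 to -2.68 on NoTg arrays. A two-sided exact permutation test within genotype (400 assignments) gave p = 0.005, the smallest it can give, and adjusted p = 0.00667 over the 4 such values tested. This value was chosen after the Gtsf1 levels of Tg and NoTg arrays were seen to separate. The p is therefore no independent support for the difference. In whole ovaries, fewer cells of a type and less RNA per cell cannot be told apart.

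**Figure D3:**
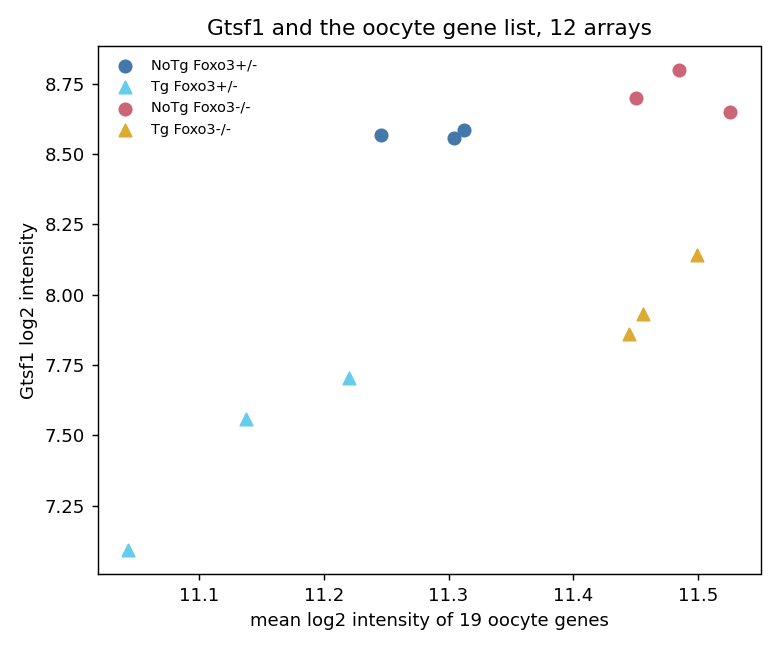
Gtsf1 log2 intensity (vertical axis) against the mean log2 intensity of 19 oocyte markers (horizontal axis), 1 point per array. Circles are NoTg and triangles Tg arrays. The Foxo3-/- arrays have marker means of 11.44 to 11.53. Those with the transgene lie at 7.86 to 8.14 and those without it at 8.65 to 8.80.

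Stk31, which encodes a germ cell protein with a Tudor and a kinase-like domain, stood lower with the transgene without passing the test. Its level was 5.87, 5.97 and 6.68 in NoTg and 5.23, 5.56 and 5.62 in Tg Foxo3+/- ovaries, and 6.04, 5.71 and 6.22 in NoTg and 5.84, 5.55 and 5.16 in Tg Foxo3-/- ovaries. The groups did not overlap in Foxo3+/- and overlapped in Foxo3-/- ovaries. The difference was -0.70 ± 0.23 SE in Foxo3+/- (limma adjusted p = 0.230), -0.47 ± 0.23 in Foxo3-/- (adjusted p = 0.482) and -0.59 ± 0.16 averaged (adjusted p = 0.0579). The averaged value passed without NoTg Foxo3+/- replicate 1 (adjusted p = 0.0358), without NoTg Foxo3-/- replicate 2 (adjusted p = 0.0299) or without Tg Foxo3-/- replicate 1 (adjusted p = 0.0428), at differences of -0.66 to -0.67. It also passed with the authors' normalized values (-0.37, adjusted p = 0.0174) and with array weights (-0.48, adjusted p = 0.0354). The signal is dim, with raw intensities of 88.5 to 177.5, and the averaged genotype difference was -0.07 ± 0.16 (adjusted p = 0.840).

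Tdrkh, also known as Tdrd2, encodes a Tudor and KH domain protein of the mitochondrial surface that binds PIWI proteins and takes part in trimming piRNA ends. On its brighter probe the level was 9.29, 9.19 and 9.01 in NoTg Foxo3+/- and 9.12, 9.001 and 9.04 in Tg Foxo3+/- ovaries. It was 9.67, 9.51 and 9.75 in NoTg Foxo3-/- and 9.87, 9.65 and 9.76 in Tg Foxo3-/- ovaries. All 6 null arrays lay above all 6 heterozygous arrays, whatever the transgene.

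The null difference of that probe was 0.48 ± 0.12 SE without the transgene (1.39-fold, limma adjusted p = 0.0620), where 0 of 8 member genes were called against 0.911% of all probes (0.4% higher and 0.511% lower); 2 of the members, Tdrkh and Tdrd1, had an unadjusted p under 0.05. With the transgene it was 0.71 ± 0.12 (1.63-fold, adjusted p = 0.00428), the 1 call among 8 members against 2.18% of all probes (1.49% higher and 0.689% lower). Averaged, this Tdrkh probe rose 1.51-fold (0.59 ± 0.08, adjusted p = 0.000473), one of 2 members called of 8, against 8.34% of all probes (4.13% higher and 4.22% lower). With array background as a covariate the averaged value was 0.45 (adjusted p = 0.119), and median scaling ended the call with the transgene (0.58, adjusted p = 0.170). Without any single array the averaged difference was 0.55 to 0.63 and stayed called. The averaged transgene difference was 0.00 ± 0.08 (adjusted p = 0.995), and it ran from -0.04 to 0.46 over the other settings.

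A dimmer Tdrkh probe, also detected on 12 of 12 arrays, did not share this pattern. It read 7.87, 7.84 and 7.89 in NoTg Foxo3+/-, 7.63, 7.54 and 7.56 in Tg Foxo3+/-, 7.47, 7.80 and 7.67 in NoTg Foxo3-/- and 7.77, 7.83 and 7.74 in Tg Foxo3-/- ovaries. Null arrays lay below heterozygous ones among NoTg samples (-0.22 ± 0.13 SE, limma adjusted p = 0.449) and above them among Tg samples (0.20 ± 0.13, adjusted p = 0.458), so the averaged difference was -0.01 ± 0.09 (adjusted p = 0.965). The interaction of this probe was 0.42 ± 0.18 (adjusted p = 0.994). The difference between the 2 probes on an array was 1.71 to 2.20 in Foxo3-/- and 1.13 to 1.497 in Foxo3+/- ovaries. Its shift of 0.60 had a two-sided exact permutation p = 0.005 within transgene state, the smallest of 400 assignments (adjusted p = 0.00667). The pair was chosen after the brighter probe was seen to separate the genotypes and the dimmer one was not. The p is therefore no independent support. With the mean of both probes the averaged null difference of Tdrkh was 0.29 (limma adjusted p = 0.0128). Whether the probes read different transcripts of Tdrkh was not tested.

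Tdrd1 encodes a Tudor domain scaffold of nuage that binds methylated arginines of MILI, the product of Piwil2. Its detected probe read 6.02, 6.33 and 6.27 in NoTg Foxo3+/-, 6.18, 6.42 and 6.24 in Tg Foxo3+/-, 6.85, 6.88 and 6.50 in NoTg Foxo3-/- and 6.90, 6.68 and 6.70 in Tg Foxo3-/- ovaries. Again the 6 null arrays lay above the 6 heterozygous ones. The null difference was 0.54 ± 0.16 SE in NoTg ovaries (limma adjusted p = 0.118) and 0.48 ± 0.16 in Tg ovaries (adjusted p = 0.131). Averaged, Tdrd1 rose 1.42-fold (0.51 ± 0.11, adjusted p = 0.0105), and 0.46 with array background as a covariate did not pass (adjusted p = 0.286). The difference was 0.30 without background correction (adjusted p = 0.00946) and 0.33 with the authors' values (adjusted p = 0.0152). The averaged transgene difference was 0.04 ± 0.11 (adjusted p = 0.918). Of the promoters printed above, that of Tdrd1 holds a CACGTG and that of Tdrkh does not.

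Most oocyte markers stood higher in the same genotype, with a median of 0.29 for the averaged null difference. Of the 19, 16 lay above 0 and 3 below it, the lowest at -0.29. Among them 11 were called higher and 0 lower, beside 4.13% and 4.22% of all probes. Relative to their mean on each array, Tdrkh (brighter probe) was 0.33 higher in Foxo3-/- ovaries (two-sided exact permutation p = 0.005 within transgene state, adjusted p = 0.00667), at -1.94 to -1.63 on null and -2.23 to -1.92 on heterozygous arrays. Tdrd1 was 0.24 higher (exact permutation p = 0.045, adjusted p = 0.0450). Its ranges overlapped as well, at -5.03 to -4.57 in null and -5.30 to -4.72 in heterozygous arrays. Both genes were chosen for these tests after their null arrays were seen to lie higher, so the p-values are no independent support.

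**Figure D4:**
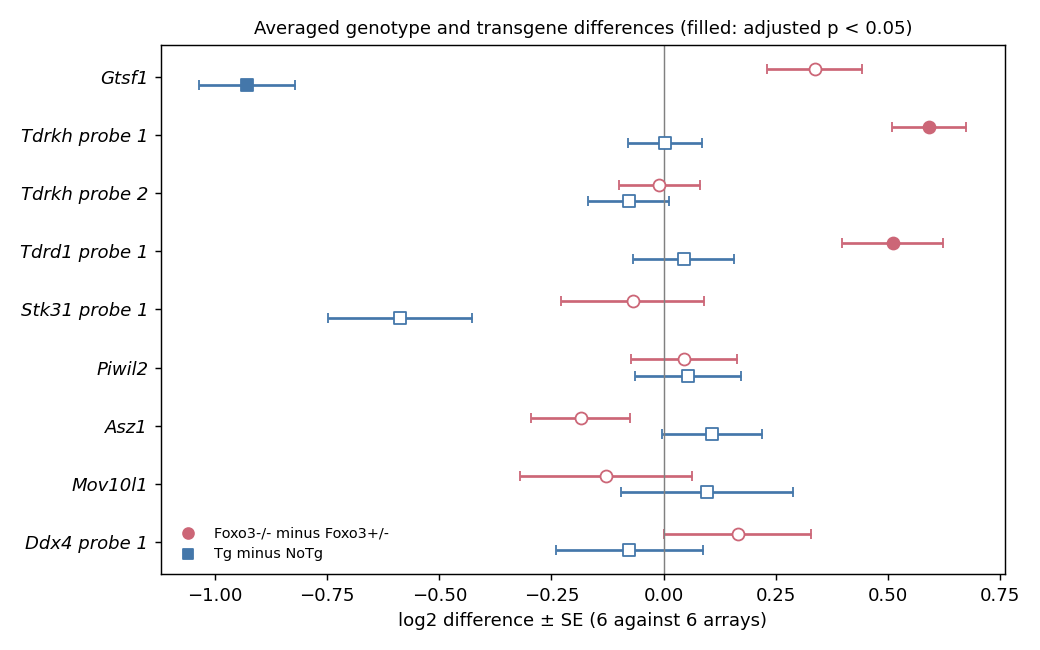
Averaged log2 differences with SE of the 9 tested member probes (horizontal axis) between Foxo3-/- and Foxo3+/- arrays (circles) and between Tg and NoTg arrays (squares), 6 against 6 arrays. Filled symbols passed an adjusted p under 0.05. Gtsf1 passes for the transgene at -0.93, and Tdrkh probe 1 (0.59) and Tdrd1 probe 1 (0.51) pass for the genotype.

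The remaining tested members were Piwil2, Asz1, Mov10l1 and Ddx4. Piwil2 encodes MILI, a PIWI protein that binds piRNAs in germ cells. Over the 12 arrays its level ran from 7.79 to 8.40, with group means of 8.04 ± 0.20, 8.07 ± 0.25, 8.07 ± 0.29 and 8.14 ± 0.09 in NoTg Foxo3+/-, Tg Foxo3+/-, NoTg Foxo3-/- and Tg Foxo3-/- ovaries. The groups overlapped, and the averaged differences were 0.05 ± 0.12 SE for genotype (limma adjusted p = 0.859) and 0.05 ± 0.12 for the transgene (adjusted p = 0.906).

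Asz1, a mitochondrial scaffold also called Gasz, had group means of 8.58 ± 0.22, 8.61 ± 0.16, 8.32 ± 0.29 and 8.51 ± 0.07 in the same order. Its averaged differences were -0.18 ± 0.11 SE for genotype (limma adjusted p = 0.336) and 0.11 ± 0.11 for the transgene (adjusted p = 0.746). Mov10l1, the RNA helicase that feeds precursor transcripts into piRNA processing, had means of 6.41 ± 0.45, 6.43 ± 0.41, 6.21 ± 0.45 and 6.38 ± 0.36. The groups overlapped throughout, with averaged differences of -0.13 ± 0.19 (adjusted p = 0.741) and 0.10 ± 0.19 (adjusted p = 0.895). The Mov10l1 probe is dim (raw intensity 110.1 to 192.6), and its averaged transgene difference ran from -0.01 to 0.88 over the other settings. Ddx4, the Vasa helicase and a standard germ cell marker, had means of 5.70 ± 0.41, 5.61 ± 0.12, 5.85 ± 0.51 and 5.79 ± 0.10 on its one detected probe. That probe is dim (raw intensity 102.6 to 167.6), and its averaged differences were 0.17 ± 0.16 (adjusted p = 0.593) and -0.08 ± 0.16 (adjusted p = 0.903).

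As a group, the 8 tested members had a median averaged null difference of 0.11, beside 0.01 over all tested probes, and a median averaged transgene difference of 0.02, beside 0.03 over all tested probes. Of the 8, 5 lay above 0 and 3 below it for genotype, and likewise for the transgene. Over all tested probes, 48.5% lay below 0 for genotype and 42.2% for the transgene, so the counts are near that share. For the interaction 0 of 8 members and 0% of all probes were called by limma; 0 members, each by its brightest probe, and 952 of 22511 probes had an unadjusted p under 0.05, and with array weights 0 probes were called as well.

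Further genes of the pathway were examined from a list of 21, of which 15 were tested. For the averaged null difference 3 rose and 1 fell, with a list median of 0.05. Over all probes, 4.13% were called higher and 4.22% lower. Tex19.1, a germ cell protein that restrains retrotransposons, rose 1.75-fold (0.80 ± 0.08 SE, limma adjusted p = 2.95e-05), from a mean log2 level of 9.76 to 10.56. Exd1, part of a piRNA biogenesis complex in which TDRD12 also acts in mice, rose 1.34-fold (0.42 ± 0.10, adjusted p = 0.0149). Gpat2, a mitochondrial acyltransferase that binds MILI, rose 1.33-fold (0.41 ± 0.09, adjusted p = 0.0146); leaving out Tg Foxo3-/- replicate 1 ended its call (0.37, adjusted p = 0.0521). Piwil1, which encodes the PIWI protein MIWI, was 1.55-fold lower (-0.63 ± 0.13, adjusted p = 0.00620) on its brighter probe. A second Piwil1 probe stood at -0.14 ± 0.12 (adjusted p = 0.509), so the fall rests on 1 of 2 probes. Median scaling ended the calls of Exd1 (0.45, adjusted p = 0.0729) and Gpat2 (0.43, adjusted p = 0.105), and array background as a covariate ended those of Exd1, Gpat2 and Piwil1 (adjusted p = 0.201, 0.460 and 0.200) and left that of Tex19.1.

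Within the arms, Tex19.1 rose in both, by 0.69 ± 0.12 SE in NoTg ovaries (limma adjusted p = 0.0117) and 0.92 ± 0.12 in Tg ovaries (adjusted p = 0.000651). Piwil1 was lower by -0.73 ± 0.18 with the transgene (adjusted p = 0.0455) and stood at -0.53 ± 0.18 without it (adjusted p = 0.171). For the averaged transgene difference 0 of the 15 were called, beside 3.05% of all probes, and the values ran from -0.22 to 0.26. The Tudor gene Tdrd5 did not pass for genotype (0.38 ± 0.12, adjusted p = 0.0709).

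The RNA interference machinery, which makes endogenous small interfering RNAs in mouse oocytes, was examined beside it. Of 11 listed genes 10 were tested. For the averaged null difference 0 rose and 1 fell, beside 4.13% and 4.22% of all probes. The 1 was Prkra, which encodes the Dicer partner PACT (-0.32 ± 0.08 SE, limma adjusted p = 0.0159). Leaving out Tg Foxo3-/- replicate 1 ended that call (-0.30, adjusted p = 0.0533), as did median scaling (-0.27, adjusted p = 0.248), the authors' values (-0.26, adjusted p = 0.0818) and array background as a covariate (-0.25, adjusted p = 0.404). Dicer1, the enzyme that cuts small interfering RNAs, stood at 0.11 ± 0.11 on its brightest probe (adjusted p = 0.586), while another of its probes was higher by 0.41 ± 0.10 (adjusted p = 0.0248). Ago4 stood at -0.48 ± 0.15 on its brightest probe (adjusted p = 0.0526) and Ago2, the slicing Argonaute, at -0.01 ± 0.10 (adjusted p = 0.962). Another detected Ago4 probe did not share the lower level. Its means were 5.25 in NoTg and 5.43 in Tg Foxo3+/- ovaries, and 5.48 in both Foxo3-/- groups. For the averaged transgene difference 0 of the 10 were called, beside 3.05% of all probes.

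**Figure D5:**
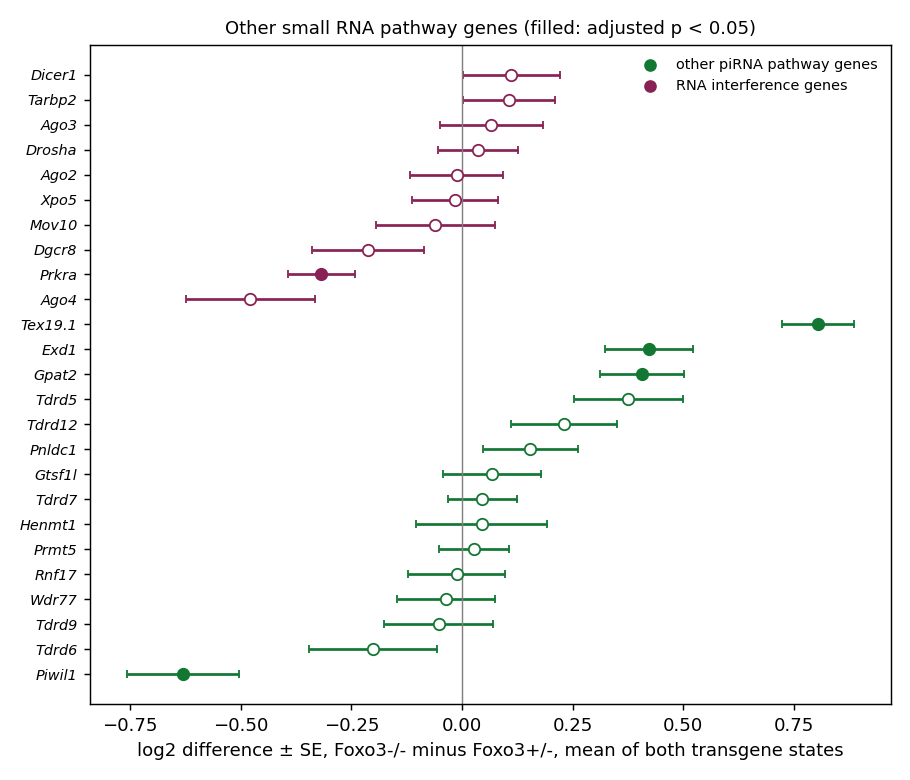
Averaged log2 difference with SE between Foxo3-/- and Foxo3+/- arrays (horizontal axis) for 15 other piRNA pathway genes (green) and 10 RNA interference genes (purple), each by its brightest tested probe. Filled points passed an adjusted p under 0.05. Tex19.1, Exd1 and Gpat2 lie above 0 and Piwil1 and Prkra below it.

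Markers of other ovarian cells moved with genotype as well. For the averaged null difference, 3 of 5 stroma markers fell (list median -0.43), as did 3 of 6 surface epithelium markers (median -0.39) and 2 of 5 theca and steroidogenic markers (median -0.60). Over all probes, 4.22% were called lower and 4.13% higher. Of 9 granulosa, 4 macrophage and 2 erythrocyte markers 0 were called, with medians of -0.02, -0.16 and 0.11, and 0 of the 3 genes listed for testicular somatic cells were called (median -0.27). The surface epithelium level, as the mean log2 of its 6 genes, was 7.43 to 7.95 in null and 7.88 to 8.19 in heterozygous arrays. Among the transgene comparisons averaged over genotype, 1 theca marker rose (Cyp11a1, on its brightest probe) and 1 stroma marker fell (Col1a2). Over all probes, 0.111% were called higher and 2.94% lower. A dimmer Cyp11a1 probe had means of 5.89 in NoTg and 5.81 in Tg Foxo3+/-, and 5.24 in NoTg and 5.13 in Tg Foxo3-/- ovaries. The dimmest, near background, had 4.78, 5.20, 4.84 and 4.89 in the same order. What part these cell types have in the values of Tdrkh and Tdrd1 was not tested.

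The genes whose pattern over the 12 arrays was most like each called member were ranked by Pearson correlation among 12172 other genes. Closest to Gtsf1 were Ndufaf2 (r = 0.965), Osbp (0.942), Pecr (0.933), Med28 (0.932) and Srp14 (0.931). For Tdrkh they were Sidt1 (0.980), Efcab6 (0.968), Sgsm1 (0.965), Homer2 (0.961) and A530032D15Rik (0.960). For Tdrd1 they were Diaph3 (0.968), Mrpl53 (0.937), Eif5a (0.905), Lrrc6 (0.904) and Ndufa9 (0.896). These correlations describe arrays that share groups, background and normalization, and none of the 3 sets names another member.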

How the data were processed

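The members and the gene lists were chosen with earlier results of these data known, as were the settings tried. The deposited table gives a raw, linear intensity for each probe on each array, neither background-subtracted nor normalized, and, per the file headers, a detection p-value. A second deposited table holds intensity normalized by the authors; how they did so is not given here, and it served as an alternative after log2. limma 3.58.1 in R 4.3.3 corrected the raw intensity by the normal-exponential model using the detection p-values (offset 16). The corrected values were quantile normalized and put on the log2 scale. Probes with p under 0.05 on at least 3 arrays were tested. limma's lmFit and eBayes, with an intensity trend, estimated the 4 group means from all 12 arrays together, and 7 comparisons were drawn from it: 4 between single groups, 2 averages and the interaction. A gene is represented by its brightest tested probe. The annotation given for the array names 1 gene for 34885 probes, several for 18 and none for 10378. Of the list symbols 8 were unmatched and 1 was matched by another name. Columns that matched no sample numbered 0.

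The genes named were chosen by rule from all members, the called genes of the 2 other pathway lists and the 3 with the smallest p in a comparison, up to 5 oocyte and 3 other markers by p, and the 5 genes most like each called member. The 4 exact permutation tests, which enumerate assignments within strata, were chosen after the values were seen. In simulated log2 values of 22511 probes, 100 probes were changed by 1 and 100 by 0.6, with independent noise assumed. The model recovered 97% of changes of 1 and 65% of changes of 0.6 for the averaged null difference, with 6 false calls. For the averaged transgene difference it recovered 98% and 62%, with 7 false calls. The data had 1878 and 687 calls for these averages, more than were changed in the simulation, so the rates need not hold for the data. The number of arrays limits precision. Chip and hybridisation day were not used here.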

Additional observations from a re-analysis of the deposited data

How the results depend on the processing

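Tried settings were median scaling, leaving out background correction, the detection filter or the intensity trend, a stricter filter (6 or more arrays at p under 0.01), the authors' values, array weights, probe means per gene, only the compared groups, array background as a covariate, a replicate block, and each array left out. The count of called members changed as follows. The total calls over all probes changed with the settings too, as given at the end of this section. What part of a change in members goes with that total was not tested. For the null difference with the transgene (1 member) it was 0 with median scaling and with array background, and 3 with array weights. Without the transgene (0 members) it was 1 with the authors' values and with array weights. For the transgene in Foxo3+/- (1 member) it was 0 with median scaling, the authors' values, only the compared groups or array background, and 0 to 1 with 1 array left out. In Foxo3-/- (0 members) it was 1 with the authors' values, the stricter filter, array weights or the mean of probes, and 0 to 1 with 1 array left out. For the averaged null difference (2 members) it was 0 with array background, 3 with array weights and with probe means per gene, and 2 to 3 with 1 array left out, the third being Gtsf1, and for the averaged transgene difference (1 member) 0 with array background, 2 with the authors' values and with array weights, and 1 to 2 with 1 array left out. Averaged null differences changed sign for the dimmer Tdrkh probe (0.02 with median scaling, 0.03 with the authors' values and with array background, -0.05 to 0.03 with 1 array left out), Piwil2 (-0.09 with array weights, -0.03 with array background, -0.04 to 0.09 left out) and Stk31 (0.03 with array weights, -0.15 to 0.06 left out). Averaged transgene differences changed sign for the brighter Tdrkh probe (-0.03 with the authors' values, -0.02 with array weights, -0.04 with the mean of probes, -0.04 to 0.04 left out), Tdrd1 (-0.06 with the authors' values, -0.02 to 0.08 left out), Piwil2 (-0.01 with the authors' values, 0.00 to 0.14 left out), Mov10l1 (-0.01 with the authors' values, 0.00 to 0.22 left out), Asz1 (-0.12 with array background) and Ddx4 (-0.20 to 0.05 left out). The highest averaged transgene difference over the settings was 0.46 for the brighter Tdrkh probe and 0.88 for Mov10l1. It was 0.31 for Piwil2 and 0.20 for Tdrd1. None of the differences that changed sign had passed the test, and the causes were not tested. The differences of Gtsf1, Tdrd1 and the brighter Tdrkh probe that had passed kept their sign in every setting. The labels do not say that replicate numbers pair samples across groups. Deviations of same-numbered arrays correlated at -0.179 to 0.264, and at 0.0204 to 0.175 for replicate 1. No values for differently numbered arrays are given beside them, so these correlations do not settle whether samples were paired. With the replicate block Gtsf1 was -0.93 for the averaged transgene difference (adjusted p = 0.00109), and the number of members called did not change in any comparison. Total calls over all probes ranged over these settings from 16 to 746 for the null difference without the transgene (205 as reported), 17 to 2698 for the same with the transgene (491 as reported), 0 to 925 for the transgene in Foxo3+/- (82 as reported). They ranged from 0 to 512 for the transgene in Foxo3-/- (43 as reported), 119 to 3404 for the averaged null difference (1878 as reported), 0 to 1641 for the averaged transgene difference (687 as reported). With the replicate block the total for the transgene in Foxo3+/- was 21. Dim probes near background (Ddx4, Stk31, Tdrd1, Mov10l1) limit what can be resolved.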
